A study of Mus musculus with 18 samples.

Results

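Among 6 larynx libraries from mice kept in room air, 3 carried high levels of gland and cartilage transcripts and the other 3 carried low levels, although the labels give all 6 the same exposure. The split was made on the measured values themselves, as counts divided by the column sum and multiplied by 1000000 (CPM). Libraries air 1, 2 and 3 were taken as rich because Lipf was above 10000 CPM and Acan above 50 CPM, and libraries air 4, 5 and 6 as poor because Lipf was below 5000 CPM and Acan below 50 CPM. The rule thus placed 6 of the 18 libraries of the series, 3 on each side, and left none of the 6 air libraries out. All mice were C57BL6/J males aged 8 to 9 weeks, and whole larynges were used. The other 12 libraries comprised 6 from mice exposed to 3R4F cigarette smoke and 6 from mice exposed to JUUL Virginia tobacco e-cigarette aerosol, and every group spent 1 hour a day on 5 days a week for 4 weeks in the inhalation chamber. No sequencing lane, date or batch is labelled, and the rich libraries carry the replicate numbers 1 to 3 and the poor ones 4 to 6, so an unlabelled difference in dissection or handling and the split cannot be told apart.

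Serous and mucous glands lie under the laryngeal epithelium and secrete enzymes, antimicrobial proteins and mucins onto the airway surface, with myoepithelial cells around their acini squeezing the secretion out. The larynx is held open by plates of cartilage, whose chondrocytes build a matrix of type II collagen and of aggrecan, the large proteoglycan encoded by Acan. The inner surface is part stratified squamous epithelium, over the vocal folds, and part ciliated airway epithelium, and the thyroid and parathyroid glands lie against the outside. In these bulk samples fewer cells of a type and less RNA per cell cannot be told apart.

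The promoters of both genes that made the split are shown with that of Lce3c, one of the genes at the other end of the comparison, because the 3 windows differ in their base composition. Each window runs from 250 bases before to 50 bases after a RefSeq transcript start (GRCm38.p6, plus strand), 5' to 3', with each CG dinucleotide in capitals.
Lipf, chr19:33960998-33961297: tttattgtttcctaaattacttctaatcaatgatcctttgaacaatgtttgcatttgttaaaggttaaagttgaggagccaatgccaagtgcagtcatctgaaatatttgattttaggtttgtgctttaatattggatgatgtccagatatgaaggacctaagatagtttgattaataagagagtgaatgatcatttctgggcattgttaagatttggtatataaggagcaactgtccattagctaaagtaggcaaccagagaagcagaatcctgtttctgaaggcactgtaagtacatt
Acan, chr7:79052976-79053275: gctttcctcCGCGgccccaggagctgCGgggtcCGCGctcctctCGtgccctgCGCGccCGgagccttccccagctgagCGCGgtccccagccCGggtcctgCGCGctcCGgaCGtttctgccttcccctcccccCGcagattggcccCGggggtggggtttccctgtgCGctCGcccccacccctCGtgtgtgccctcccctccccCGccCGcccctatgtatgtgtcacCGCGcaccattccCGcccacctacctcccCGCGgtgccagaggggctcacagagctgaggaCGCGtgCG
Lce3c, chr3:92944236-92944535: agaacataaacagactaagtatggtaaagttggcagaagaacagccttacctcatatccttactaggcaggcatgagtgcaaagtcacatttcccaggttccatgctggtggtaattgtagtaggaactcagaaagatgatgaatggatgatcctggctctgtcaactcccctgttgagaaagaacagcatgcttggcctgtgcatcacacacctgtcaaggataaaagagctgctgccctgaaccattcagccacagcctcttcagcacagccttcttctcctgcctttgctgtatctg
CG reads the same on both strands and overlaps no copy of itself. The Acan window held 31 of them, and the Lipf and Lce3c windows held 0. The RefSeq starts lie 61 bases from the deposited gene start for Lipf and 257 bases from it for Acan, and coincide for Lce3c. Of the 32851 such promoters listed by RefSeq, 94.6% held at least 1 CG, 10.6% held as many as Acan, and the median was 7. That listing covers every promoter, while the medians that follow take 1 promoter per measured gene, so the sets differ. The median was 3 over the 17 of 18 measured gland secreted protein genes with an entry, and 1 over the 19 of 20 measured late cornified envelope (Lce) genes with an entry. The same count over the cartilage matrix genes was void, since fewer than 80% (79.2%) had an entry. It was also void over the protein-coding genes higher (68.8%) or lower (79.0%) in rich libraries and over all tested ones (78.8%). A count of letters in these windows is a description and shows nothing about regulation.

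Lipf (ENSMUSG00000024768, chromosome 19, 33961187 to 33976810) encodes gastric lipase, and stood at 13973, 21974 and 13867 CPM of the column sum in air 1, 2 and 3, against 3423, 704 and 1271 in air 4, 5 and 6. Acan (ENSMUSG00000030607, chromosome 7, 79053483 to 79115099) stood at 144, 85.9 and 76.0 CPM in air 1, 2 and 3, against 18.6, 6.88 and 7.63 in air 4, 5 and 6. The rich libraries nearest to the limits were thus air 3 on both genes, and the poor library nearest to them was air 4 on both. Lipf alone gave 1.40%, 2.20% and 1.39% of all counts in air 1, 2 and 3, against 0.342%, 0.0704% and 0.127% in air 4, 5 and 6. Its share was 1.05% to 2.11% in the smoke libraries and 1.12% to 3.91% in the e-cigarette libraries, so the poor libraries lay below the other 15 of the series.

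Every level that follows is a CPM scaled by TMM, edgeR's trimmed-mean factors, and every difference is the mean log2 CPM of the 3 rich libraries minus that of the 3 poor libraries, with its standard error (SE). Since these libraries were chosen by their values, no p-value is given between them. A gene is counted as higher when its lowest rich library is above its highest poor library and the difference is at least 1 (2-fold), and as lower in the mirror case. Of 17537 genes tested 474 (2.7%) were higher and 476 (2.71%) lower in rich libraries, and the median difference was -0.01. Differences were above 0 in 8522 genes and below 0 in 9015, and these shares are the background for the lists below. With plain column sums the median was -0.15 and the split was 322 higher and 682 lower, so that 32.1% rather than 49.9% of the counted genes were higher. Without the minimum difference 3110 genes (17.7%) lay wholly higher and 2768 (15.8%) wholly lower. On the first principal component of the 6 libraries, which held 50.4% of their variance, air 1, 2 and 3 scored -27.3, -35.3 and -51.4, against 27.5, 46.7 and 39.8 in air 4, 5 and 6.

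Secreted proteins of the glands were higher in rich libraries in 14 of 18 measured cases (against 2.7% of all tested genes) and lower in 0. Their median difference was 2.37, and the 14 include Lipf, on which the split was made. The summed level of the list, which also holds Lipf, was 39023 to 51351 CPM in the rich libraries, against 3660 to 15253 CPM in the poor ones. Ltf (ENSMUSG00000032496, chromosome 9, 111019271 to 111042767), the iron-binding antimicrobial lactoferrin, was at 11310, 12480 and 15520 CPM in air 1, 2 and 3, against 5611, 1433 and 2960 CPM in air 4, 5 and 6. The groups did not overlap, and air 4 was the highest of the poor libraries. Ltf averaged 13103 ± 2175 CPM in rich and 3334 ± 2114 CPM in poor libraries (SD, n = 3 each), a difference of 2.17 (SE 0.58). Lyz1, a lysozyme that breaks bacterial cell walls, was at 1412, 1439 and 2088 CPM in air 1, 2 and 3, against 118, 76.7 and 106 CPM in air 4, 5 and 6, a difference of 4.04 (SE 0.26). Here air 4 was again the highest poor library, but by less. Dmbt1, a scavenger-receptor-like protein of mucosal secretions, was at 7160, 7708 and 9935 CPM in the rich libraries, against 3188, 484 and 1127 CPM in the poor ones. Lpo, the lactoperoxidase of saliva and airway fluid, differed by 3.16 (SE 1.21). The 4 members not counted were Pip and Cst10, both below 3 CPM in every air library, Amy1 and Wfdc2. Amy1, the amylase gene expressed in salivary glands, was at 30.9, 32.7 and 30.6 CPM in rich libraries, against 29.4, 38.3 and 30.3 CPM in poor ones. Counts of near-identical copies in this list (Lyz1 with Lyz2, Dcpp1 with Dcpp2 and Dcpp3, Bpifb9a) are uncertain, since reads can be split between them.

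Outside that list, the largest positive differences among protein-coding genes with at least 5 CPM in either group also fell on secreted proteins. Bpifb2, of the BPI fold family of lipid-binding secreted proteins, was at 21.9, 32.0 and 17.5 CPM in air 1, 2 and 3, against 0.994, 0.740 and 0.993 CPM in air 4, 5 and 6, a difference of 4.51 (SE 0.28). Odam, odontogenic ameloblast-associated protein, was at 13.7, 32.9 and 22.1 CPM in the rich libraries, against 2.81, 0.114 and 1.28 CPM in the poor ones. The prostate-type secretory genes Sbpl (3.79, SE 0.95) and Sbp (3.65, SE 0.91), are neighbours on chromosome 17. Sbpl was at 9136, 10210 and 11860 CPM in rich libraries, against 2623, 284 and 562 CPM in poor ones. The salivary proline-rich protein genes Prpmp5 (4.09, SE 1.34) and Prb1 (3.73, SE 0.88) and the submaxillary gland gene Smr2 (4.07, SE 0.55) belong to families of close copies. Lypd8, a secreted Ly6-type protein, was at 7.88, 4.14 and 3.40 CPM in rich libraries, against 0.0585, 0.512 and 0.175 CPM in poor ones. The remaining 2 of these 12 genes, Rhcg and Chga, are described with the parathyroid genes.

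Mucus genes followed in part. Of 19 measured mucous and goblet cell genes 9 were higher and 1 lower, with a median difference of 1.10. Muc5b (ENSMUSG00000066108, chromosome 7, 141839070 to 141873084), the gel-forming mucin of submucosal glands, was at 2273, 2238 and 2969 CPM in air 1, 2 and 3, against 566, 146 and 325 CPM in air 4, 5 and 6. It averaged 2493 ± 412 CPM in rich and 345 ± 211 CPM in poor libraries (SD, n = 3 each), a difference of 3.05 (SE 0.58). Muc19, another gel-forming gland mucin, was at 24.8, 39.2 and 36.5 CPM in rich libraries, against 4.79, 0.911 and 1.34 CPM in poor ones. Bpifb1, a mucosal secreted BPI fold protein, was at 7347, 12300 and 9348 CPM in rich libraries, against 1750, 331 and 792 CPM in poor ones. Tff2, a trefoil peptide secreted with mucin, differed by 2.42 (SE 0.62), and Spdef and Creb3l1, transcription factors of mucous and secretory cells, differed by 1.79 (SE 0.41) and 2.49 (SE 0.44). Muc5ac, the mucin of surface goblet cells, was at 7.04, 8.40 and 9.36 CPM in rich libraries, against 4.91, 3.42 and 5.49 CPM in poor ones, and its difference of 0.84 (SE 0.23) was under the minimum. Clca1, a secreted regulator of calcium-activated chloride conductance made by goblet cells, went the other way, with 18.0, 14.1 and 11.0 CPM in rich libraries, against 37.4, 66.0 and 39.3 CPM in poor ones.

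Of 16 acinar regulators and fluid transport genes 6 were higher and 0 lower. Sox10, a transcription factor of gland acini and of Schwann cells, was at 19.7, 21.9 and 18.9 CPM in air 1, 2 and 3, against 5.96, 2.28 and 2.22 CPM in air 4, 5 and 6. Also higher were Bhlha15 (1.69, SE 0.31), the secretory cell factor Mist1, the water channel Aqp5 (1.35, SE 0.20), the potassium channel Kcnn4 (2.52, SE 0.48) and the muscarinic receptor Chrm3 (1.34, SE 0.47), through which acetylcholine drives secretion. The other 10 were counted neither way, and 3 of the 16 differences were below 0: Barx2 (-0.22), Fgfr2 (-0.20) and Ehf (-0.06). Ano1 (0.20) and Xbp1 (0.61) were also among the 10. So some enzymes, mucins, transcription factors and channels of gland cells, but not all, were among the genes higher in rich libraries. Endoplasmic reticulum folding genes, which secretory cells use heavily, were not: 0 of 14 were higher or lower, with a median of 0.11.

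**Figure D1:**
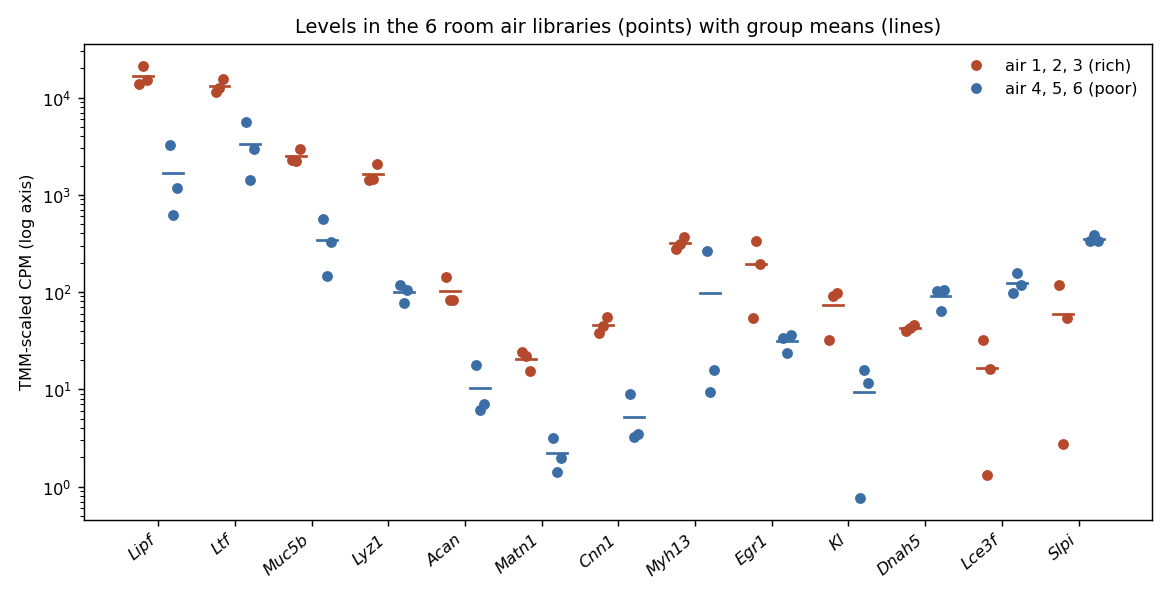
Levels of 13 genes in the 6 room air libraries as TMM-scaled CPM on a log axis, with red points for the rich libraries air 1, 2 and 3, blue points for the poor libraries air 4, 5 and 6, and lines at the group means. Lipf, Muc5b, Lyz1, Acan, Matn1 and Cnn1 lie wholly higher in rich libraries, Myh13 in air 4 is near the rich libraries, and Dnah5, Lce3f and Slpi lie wholly lower in rich libraries.

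Contractile genes shared the pattern. Of 9 smooth muscle genes 7 were higher and 0 lower (median 1.38). Of 7 myoepithelial genes 3 were higher and 0 lower (median 0.98), and those 3, Actg2, Cnn1 and Acta2, stand on both lists. The other myoepithelial genes were counted neither way: Krt14 (0.74), Krt17 (0.98), Mylk (0.61) and Trp63 (-0.19). Cnn1, calponin, which tunes actin and myosin contraction, was at 38.3, 44.9 and 55.9 CPM in air 1, 2 and 3, against 8.89, 3.24 and 3.45 CPM in air 4, 5 and 6, a difference of 3.27 (SE 0.49). Acta2, smooth muscle actin, was at 144, 186 and 166 CPM in rich libraries, against 48.4, 21.0 and 29.1 CPM in poor ones. Actg2, the enteric smooth muscle actin, was at 8.72, 12.1 and 12.8 CPM in rich libraries, against 2.16, 1.88 and 1.17 CPM in poor ones. Myh11, the smooth muscle myosin heavy chain, differed by 2.10 (SE 0.34). The basal keratin Krt5, which myoepithelial and surface basal cells share, was at 742, 580 and 928 CPM in rich libraries, against 470, 319 and 502 CPM in poor ones, a difference of 0.80 (SE 0.28) that is under the minimum, and 9 of 10 basal cell genes were counted neither way.

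Cartilage matrix genes were higher in 14 of 24 cases (against 2.7% of all tested genes) and lower in 1, with a median difference of 1.42. The summed level of the list was 746 to 1253 CPM in rich libraries, against 249 to 403 CPM in poor ones. Acan, on which the split was made, is among the 14 and in the sum. Acan itself averaged 103 ± 33.6 CPM in rich and 10.2 ± 6.40 CPM in poor libraries (SD, n = 3 each), a difference of 3.43 (SE 0.54). Matn1 (ENSMUSG00000040533, chromosome 4, 130944385 to 130955475), matrilin-1, a linker protein of hyaline cartilage, was at 24.3, 22.0 and 15.6 CPM in air 1, 2 and 3, against 3.16, 1.42 and 1.99 CPM in air 4, 5 and 6, a difference of 3.22 (SE 0.37). Col10a1, the collagen of hypertrophic chondrocytes, was at 253, 137 and 140 CPM in rich libraries, against 39.9, 12.9 and 17.9 CPM in poor ones. Air 1 was the highest of the 6 libraries on Acan, Matn1 and Col10a1. Col2a1, the main collagen chain of cartilage, was at 29.0, 12.7 and 7.44 CPM in rich libraries, against 5.26, 4.10 and 2.86 CPM in poor ones, so air 3 was close to air 4. Among the minor fibril collagens Col9a2 differed by 2.68 (SE 0.36), Col11a2 by 2.22 and Col27a1 by 2.47. Col9a1 was counted neither way, at -0.07. Ucma (2.16, SE 0.24), a small secreted protein of chondrocytes, Comp (1.61, SE 0.45), a collagen-binding glycoprotein, and Hapln1 (1.49, SE 0.51), the link protein that ties aggrecan to hyaluronan, were also higher.

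The cartilage genes did not form one block. Epyc, a small proteoglycan of cartilage, was at 3.61, 1.78 and 2.37 CPM in rich libraries, against 8.36, 5.35 and 4.50 CPM in poor ones. Ibsp had the most negative difference of the list, -1.44, but was counted neither way. The lubricin gene Prg4, made at cartilage surfaces and in synovium, was at 59.8, 29.4 and 39.6 CPM in rich libraries, against 41.8, 30.9 and 24.6 CPM in poor ones, and the groups overlapped. Of 13 chondrocyte regulators 0 were higher or lower, with a median of 0.42. Sox9, the transcription factor that drives cartilage matrix genes and is also made in gland ducts, was at 84.8, 111 and 141 CPM in rich libraries, against 46.9, 58.6 and 70.0 CPM in poor ones, a difference of 0.93 (SE 0.27). Fibrillar matrix genes of connective tissue at large were at a median of 0.61, with 0 of 18 counted either way.

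**Figure D2:**
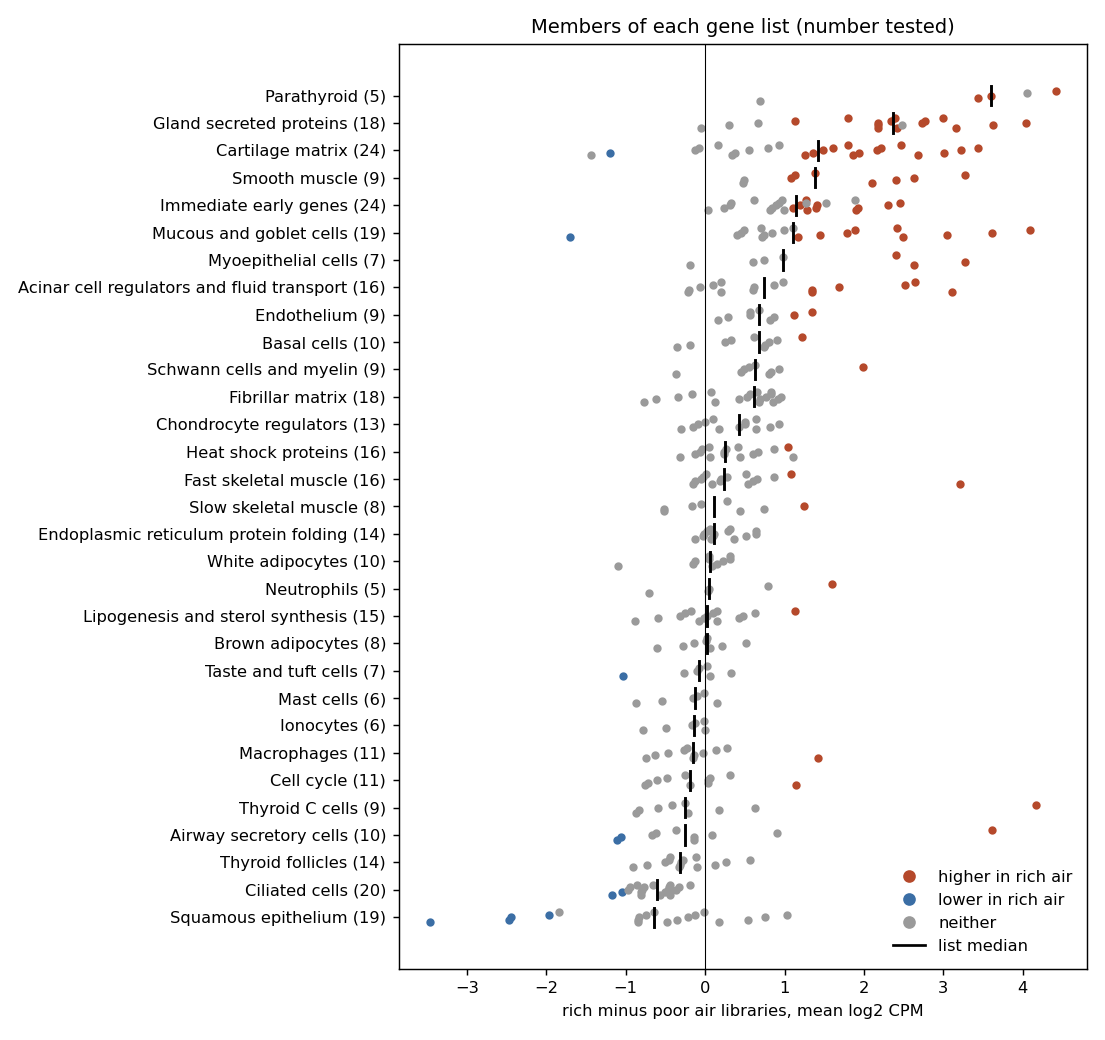
Differences of the members of each gene list with at least 5 measured genes, rich minus poor air libraries in mean log2 CPM, ordered by the list median (black bar). Red points are members counted as higher, blue points as lower and grey points as neither. All smooth muscle, parathyroid and immediate early genes and most gland and cartilage matrix genes lie to the right of 0, and all ciliated and most squamous genes to the left.

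Genes of tissues beside the glands and cartilage differed too. Parathyroid genes were higher in 3 of 5 cases. Rhcg, an ammonia transporter on that list, was at 20.7, 61.3 and 64.2 CPM in air 1, 2 and 3, against 0.00, 12.2 and 5.84 CPM in air 4, 5 and 6. Kl, klotho, the co-receptor of the phosphate hormone FGF23, was at 32.4, 92.0 and 97.0 CPM in rich libraries, against 0.760, 15.8 and 11.5 CPM in poor ones, and Gcm2, the master transcription factor of the parathyroid, at 16.2, 34.0 and 39.0 CPM, against 0.117, 11.9 and 6.08 CPM. Air 4, the poor library with the most gland RNA, had the least parathyroid RNA. Pth, parathyroid hormone, was at 1216, 3581 and 3742 CPM in rich libraries, against 2.34, 1919 and 751 CPM in poor ones, so that air 1 and air 5 overlapped. Chga, chromogranin A of neuroendocrine granules, which parathyroid and thyroid C cells both make, was at 1271, 3584 and 3936 CPM in rich libraries, against 21.0, 435 and 337 CPM in poor ones. Calca, the calcitonin gene of C cells, overlapped, at 1203, 1556 and 1369 CPM in rich libraries, against 1386, 2822 and 2246 CPM in poor ones. Thyroid follicle genes overlapped as well, with 0 of 14 counted and Tg, thyroglobulin, at 60140, 61860 and 69490 CPM in rich libraries, against 97160, 55430 and 91240 CPM in poor ones. The part of neighbouring parathyroid tissue in the other differences was not tested.

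In skeletal muscle 2 of 16 fast genes and 1 of 8 slow genes were higher. Myh13, the superfast myosin of eye and laryngeal muscles, was at 278, 311 and 372 CPM in air 1, 2 and 3, against 265, 9.39 and 15.9 CPM in air 4, 5 and 6. On this gene air 4 was near the rich libraries, and air 5 and air 6 stood apart from the other 4. Atp2a1, the calcium pump of fast fibres, was at 6117, 5452 and 7105 CPM in rich libraries, against 3938, 2085 and 3048 CPM in poor ones, while Myh4, the main fast myosin of body muscle, was at 8356, 7630 and 10800 CPM, against 7913, 4284 and 6590 CPM, and overlapped. Endothelial genes were higher in 2 of 9 cases (474 of 17537 over all tested genes), with all 9 differences above 0 (8522 of 17537). Vwf, von Willebrand factor, was at 58.6, 53.9 and 63.7 CPM in rich libraries, against 36.1, 15.4 and 21.9 CPM in poor ones, and Cdh5, the cadherin of endothelial junctions, differed by 1.12 (SE 0.24).

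Among immune genes the antibody genes of mucosal secretion stood out, chosen here after their values were seen. Igha, the heavy chain of immunoglobulin A, was at 37.5, 38.3 and 33.5 CPM in air 1, 2 and 3, against 10.9, 1.31 and 1.99 CPM in air 4, 5 and 6, and Jchain, which joins immunoglobulin A into dimers, was at 10.4, 8.69 and 9.11 CPM, against 4.56, 1.88 and 1.64 CPM. Pigr, the receptor that carries immunoglobulin A across gland epithelium, differed by 1.13. Lyz2 was higher (1.42, SE 0.19) but was the only one of 11 macrophage genes counted, and it is the close copy of Lyz1. Of 4 measured T cell genes 1 was higher, of 4 B and plasma cell genes 1 (Jchain), of 5 neutrophil genes 1, at under 2 CPM, and of 6 mast cell genes 0. White and brown adipocyte genes had 0 of 10 and 0 of 8 counted, lipogenesis genes 1 of 15 and ionocyte genes 0 of 6.

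Immediate early genes, the transcription factors and phosphatases that cells switch on within minutes of a stimulus, were higher in 10 of 24 cases. They were lower in 0 cases, and 24 of 24 differences were above 0 (median 1.15), against 8522 of 17537 tested genes. Their summed level was 1199 to 2749 CPM in rich libraries, against 987 to 1008 CPM in poor ones, and 704 to 919 CPM in smoke and 748 to 931 CPM in e-cigarette libraries. Egr1 was at 54.3, 331 and 196 CPM in air 1, 2 and 3, against 33.9, 23.6 and 36.3 CPM in air 4, 5 and 6. Egr2 was at 2.46, 7.82 and 16.2 CPM in rich libraries, against 0.702, 1.31 and 1.64 CPM in poor ones, Dusp2, a phosphatase of mitogen-activated kinases, at 85.2, 96.0 and 344 CPM, against 28.5, 49.1 and 38.7 CPM, and Fos at 31.03, 103.9 and 43.09 CPM, against 22.6, 19.7 and 21.6 CPM. Air 2 was highest on Egr1 and Fos, air 3 on Egr2 and Dusp2, and air 1 was nearest to the poor libraries on all 4. Of 16 heat shock genes 1 was higher, with a median of 0.25. The part of these stimulus genes in the other differences was not tested.

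**Figure D3:**
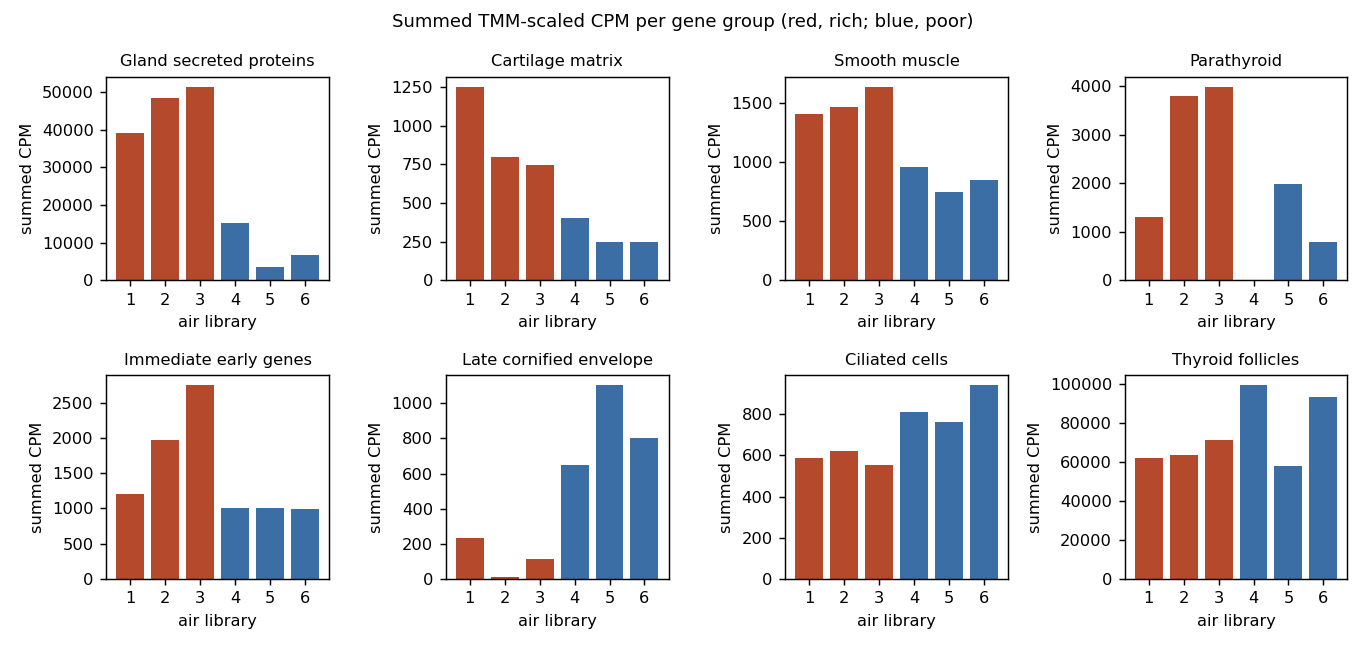
Summed TMM-scaled CPM of 8 gene groups in each room air library, with the rich libraries air 1, 2 and 3 in red on the left and the poor libraries air 4, 5 and 6 in blue on the right. Gland, cartilage and smooth muscle sums are higher in each rich library. The gland and cartilage sums include Lipf and Acan, on which the split was made. The parathyroid sum is lowest in air 4, and late cornified envelope genes are lowest in air 2.

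Genes of the cornified envelope made up most of the largest negative differences. Of the 10 protein-coding genes with the largest ones 8 were Lce genes, which encode small proteins crosslinked into the envelope of cornified cells and lie together on chromosome 3. Lce3c (ENSMUSG00000045475, chromosome 3, 92944486 to 92945733) was at 22.2, 0.460 and 11.9 CPM in air 1, 2 and 3, against 61.2, 113 and 82.4 CPM in air 4, 5 and 6, a difference of -3.96 (SE 1.65). Lce3f was at 32.2, 1.32 and 16.4 CPM in rich libraries, against 98.7, 159 and 118 CPM in poor ones. Lce1g (-4.08), Lce1h (-3.99), Lce1i (-3.95), Lce1a2 (-3.84), Lce1m (-3.72) and Lce1d (-3.70) had the same order, with air 2 the lowest and air 5 the highest in each. Over the whole family, looked at after its members had appeared, 20 of 20 measured Lce genes were lower, and their summed level was 235, 12.0 and 115 CPM in rich libraries, against 646, 1104 and 804 CPM in poor ones. Close copies within the family make the counts of single members uncertain, and the sum less so. The exposed libraries spanned 92.6 to 1440 CPM in smoke and 11.3 to 1369 CPM in e-cigarette, so the sum of each air library lay within the range of the exposed libraries. On single genes air 2 lay below every exposed library for Lce3c, Lce3f, Lce1h, Lce1i, Lce1a2 and Lce1d.

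The other 2 were Slpi and Chil4. Slpi (ENSMUSG00000017002, chromosome 2, 164354070 to 164389095), a secreted inhibitor of leukocyte proteases, was at 119, 2.76 and 54.6 CPM in air 1, 2 and 3, against 332, 389 and 337 CPM in air 4, 5 and 6, a difference of -3.73 (SE 1.64), and air 2 was again the lowest. Chil4, a chitinase-like protein, was at 0.180, 0.00 and 0.0641 CPM in rich libraries, against 0.468, 20.6 and 5.03 CPM in poor ones, a difference of -4.45 (SE 1.55) that was the largest negative one among the named genes and rests on air 5 and air 6. Of 19 squamous epithelium genes 4 were lower and 0 higher. Their differences were below 0 in 15 and above 0 in 4: Krt6a (1.03), Ivl (0.76), Tgm1 (0.54) and Sprr2a3 (0.18). The keratin gene Krt16, outside that list, was counted as higher (2.01). Dsg1a, a desmosomal cadherin, was at 5.95, 0.288 and 2.50 CPM in rich libraries, against 26.1, 17.3 and 18.6 CPM in poor ones. Krtdap, a keratinocyte differentiation protein, was at 113, 21.3 and 85.7 CPM, against 241, 465.7 and 317 CPM, and Sprr3 and Crct1, of the same envelope, differed by -1.97 (SE 0.79) and -2.44. The keratin of non-cornified squamous layers, Krt13, was at 3351, 1343 and 2955 CPM in rich libraries, against 4595, 3665 and 4519 CPM in poor ones, under the minimum at -0.84. Lor, loricrin, overlapped, at 481, 19.1 and 242 CPM in rich libraries, against 522, 429 and 462 CPM in poor ones.

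Ciliated cell genes were all below 0, by less. Of 20 genes 2 were lower and 0 higher, against 476 and 474 of 17537 tested genes. In 20 of 20 the difference was negative, against 9015 of 17537, and the median was -0.61. Dnah5, a heavy chain of the outer dynein arm that drives ciliary beating, was at 39.5, 43.1 and 46.2 CPM in air 1, 2 and 3, against 102, 64.1 and 105 CPM in air 4, 5 and 6. Dnah11, another outer arm heavy chain, was at 6.61, 7.08 and 5.90 CPM in rich libraries, against 13.6, 11.9 and 20.1 CPM in poor ones. Over the dynein heavy chain family, looked at after these members had appeared, 7 of 15 measured Dnah genes were lower and 0 higher, with a median of -0.90. Foxj1, the transcription factor of ciliated cells, differed by -0.33 (SE 0.19), at 76.6, 74.1 and 73.3 CPM in rich libraries, against 97.7, 73.7 and 115 CPM in poor ones, and overlapped. Surface secretory genes had 1 of 10 higher, Bpifb1, and 2 lower. These were Scgb3a2, a secretoglobin of airway epithelium, at 322, 430 and 335 CPM in rich libraries, against 603, 999 and 691 CPM in poor ones, and Sftpa1, a surfactant collectin, at 10.0, 9.55 and 5.39 CPM, against 13.3, 22.0 and 17.9 CPM. Bpifa1, the abundant secreted protein of surface epithelium, was at 13240, 14170 and 13760 CPM in rich libraries, against 18240, 16370 and 18560 CPM in poor ones, a difference of -0.37 (SE 0.06). Of 7 taste and tuft cell genes 1, Gnat3, was lower, and of 11 cell cycle genes 1, Plk1, was higher.

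Annotation and library measures differed along with the genes. Protein-coding genes made up 85.2% of those higher, 68.9% of those lower and 86.7% of all tested. Of the genes lower in rich libraries 8.19% were of the class TEC (to be experimentally tested, unspliced loci), against 1.7% of all tested, and the class took 0.0644%, 0.0737% and 0.0613% of counts in air 1, 2 and 3, against 0.0798%, 0.0990% and 0.0903% in air 4, 5 and 6. The mitochondrial genome gave 4.52%, 4.65% and 4.18% of counts in rich libraries, against 4.91%, 6.09% and 4.77% in poor ones. Total counts were 16.3, 16.8 and 17.1 M in rich libraries, against 16.2, 15.6 and 15.7 M in poor ones, and 15.9 to 22.5 M in the exposed libraries. Air 5 stood apart with 26788 genes detected, against 23735 to 24662 in the other 5 air libraries. The part of RNA quality and depth in these differences was not tested. By position, 66 of the 476 lower genes (13.9%) lay on chromosome 3, where the Lce genes are, against 5.26% of all tested, and 57 of the 474 higher genes (12%) on chromosome 7, against 8.02%.

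The exposed libraries, which the rule did not use, place both air groups. The 3 poor libraries were below every one of the 12 exposed libraries in 236 of the 474 genes higher in rich libraries (49.8%), against 6.3% of all tested genes. The 3 rich libraries were above every exposed library in 47 of the 474 (9.92%, against 2.95% of all tested). Among the 476 lower genes the rich libraries were below every exposed library in 49 (10.3%, against 2.65% of all tested) and the poor libraries above every exposed library in 48 (10.1%, against 3.06%). For the genes higher in rich libraries it was thus mostly the poor libraries that lay outside the range of the exposed ones. Muc5b spanned 1830 to 5098 CPM in smoke and 1014 to 5442 CPM in e-cigarette libraries, and Cnn1 27.2 to 40.3 CPM and 19.4 to 68.8 CPM, all above the poor air libraries. The 474 and 476 genes were picked on the air levels, so shares above those of all tested genes were partly fixed by that choice. These comparisons also carry the exposures along and were not tested.

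Whether gland and cartilage RNA vary together was then asked within the exposed libraries. Lipf spanned 10589 to 21207 CPM in smoke and 11023 to 42502 CPM in e-cigarette libraries, and Acan 50.2 to 255 CPM and 33.3 to 240 CPM. With each exposure centred on its own mean, log2 Lipf and log2 Acan had a Pearson r of 0.58 over the 12 libraries (permutation p = 0.0437, adjusted p = 0.0771 over 3 relations, two-sided) and a Spearman rho of 0.29 (permutation p = 0.366, adjusted p = 0.549). Without smoke 1 and e-cigarette 4, the libraries farthest from the median of Lipf, r was 0.38 (permutation p = 0.276). With 10 libraries and a narrower range of Lipf, this cannot decide whether the relation rests on them. Within smoke r was 0.084 (exact permutation p = 0.89, n = 6), and within e-cigarette 0.83 (exact permutation p = 0.0514, n = 6). The largest drop from leaving out 1 library came with e-cigarette 1, the exposed library lowest in Acan, without which r was 0.22 (permutation p = 0.513). None of the 3 relations passed an adjusted p of 0.05.

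**Figure D4:**
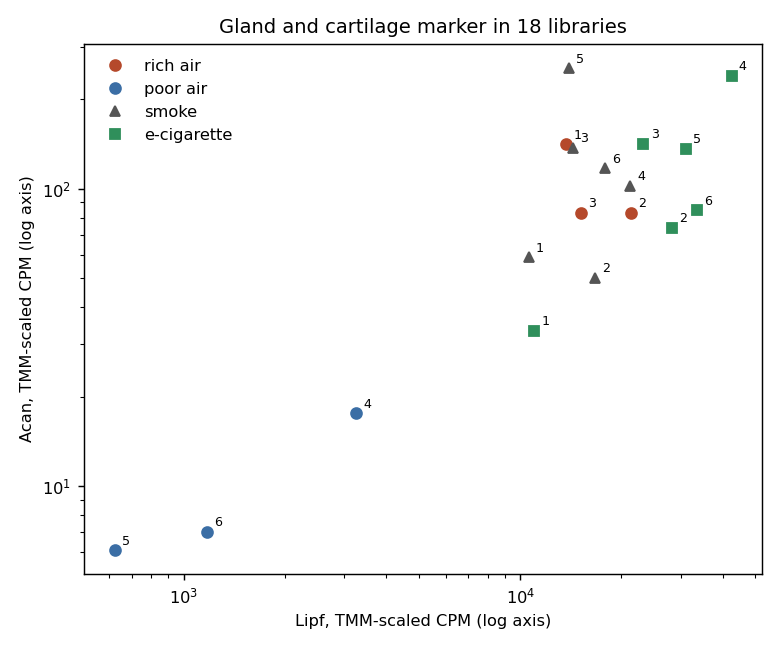
Acan against Lipf, both in TMM-scaled CPM on log axes, in the 18 libraries, with replicate numbers beside the points. The 3 poor air libraries lie at 17.6 CPM of Acan or less and 3247 CPM of Lipf or less, below every other library on both axes, and the rich air libraries lie among the smoke and e-cigarette libraries.

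Genes that follow each marker within the exposed libraries were found with edgeR's quasi-likelihood F test of the slope of each gene's log2 level on log2 CPM of Acan or of Lipf, with the exposure as a term, and called at a Benjamini-Hochberg adjusted p below 0.05 over all genes. On Acan 222 of 17536 genes had a positive slope (1.27%) and 38 a negative one (0.217%). Of the genes higher in rich air libraries 58 of 473 (12.3%) were called positive on Acan and 0 negative. Of the 476 lower ones 0 were called positive and 5 (1.05%) negative. Slopes on Acan were above 0 in 79.9% of the higher genes, 28.8% of the lower genes and 47.2% of all genes. In the other direction, 58 of the 222 positive genes (26.1%) were higher in rich air libraries and 0 were lower.

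Of the genes with the smallest p on Acan the first was Matn1. It spanned 15.6 to 46.2 CPM in smoke and 12.3 to 51.2 CPM in e-cigarette libraries, and had a slope of 0.66 (SE 0.06, edgeR adjusted p = 0.000204). Meltf, a membrane-bound relative of transferrin, had a slope of 0.59 (SE 0.06, edgeR adjusted p = 0.000245), and in air it was at 27.4, 19.8 and 18.5 CPM in rich libraries, against 4.91, 3.07 and 4.73 CPM in poor ones. Xylt1, which starts the sugar chains of proteoglycans such as aggrecan, had a slope of 0.56 (SE 0.07, edgeR adjusted p = 0.00262) and an air difference of 1.16 (SE 0.24). Col6a3, a chain of the collagen around chondrocytes and in connective tissue, and Lamc3, a laminin chain, had slopes of 0.48 and 0.70, with air differences of 0.83 and 0.85 that are under the minimum. Serpina3n, a serine protease inhibitor, had a slope of 0.58 (SE 0.08) and an air difference of 1.66 (SE 0.56). These 6 all had positive slopes and positive air differences.

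By list, 12 of 23 cartilage matrix genes besides Acan were called positive and 0 negative, with a median slope of 0.56, against -0.01 over all genes. Col2a1 (slope 0.86, SE 0.15, edgeR adjusted p = 0.0229), Matn3 (0.77), Col10a1 (0.78) and Hapln1 (0.74) were the steepest, and Col9a2 (0.56, SE 0.08, edgeR adjusted p = 0.00472) was among them. Epyc had a slope of 0.36 (SE 0.22, edgeR adjusted p = 0.458), so its lower level in rich air libraries had no slope called here. Of the chondrocyte regulators Sox9 was called, with a slope of 0.25 (SE 0.06, edgeR adjusted p = 0.0359). Fibrillar matrix genes were called positive in 6 of 18 cases, led by Col6a1 (0.51) and Fn1 (0.54), fibronectin, although 0 of the 18 were counted in air. Schwann cell genes were called in 3 of 9 cases, Ncmap, Cdh19 and Prx, and smooth muscle genes in 2 of 9, Myh11 (0.41, SE 0.07, edgeR adjusted p = 0.0153) and Actg2 (0.47, SE 0.10, edgeR adjusted p = 0.0297). Gland secreted protein genes were called in 1 of 18 cases, Dmbt1 (0.34, SE 0.07, edgeR adjusted p = 0.0237), and mucous genes in 2 of 19, Creb3l1 (0.40, SE 0.08, edgeR adjusted p = 0.0284) and Muc5b.

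Muc5b had a slope on Acan of 0.72 (SE 0.15, edgeR adjusted p = 0.0419). With a block for replicate number the slope of Muc5b was 0.39 (edgeR adjusted p = 0.971). Its slope was 0.66 to 0.78 in the fits that follow, except in 1 exposure alone. The call was lost at edgeR adjusted p values of 0.0563 to 0.13 without any 1 of the 6 smoke libraries or of e-cigarette 1, 3, 4 and 5. It was also lost at 0.0551 with column sums and at 0.102 with every gene that had at least 1 count. With Lipf in the same fit it was lost at 0.104, and with Tg as a covariate at 0.0624. In the e-cigarette libraries alone the slope was 0.84 at an edgeR adjusted p of 0.757. The call was kept without e-cigarette 2 (edgeR adjusted p = 0.00772) or 6 (0.0116) and with DESeq2 size factors (0.0388). The DESeq2 Wald test kept it too (adjusted p = 9.45e-06). In the smoke libraries alone it was kept at a slope of 0.57 (edgeR adjusted p = 0.0122). Cell cycle genes went the other way, with 4 of 11 called negative and 0 positive: Mki67 (-0.61, SE 0.09, edgeR adjusted p = 0.00631), the proliferation antigen, Top2a (-0.41), Ccnb1 and Ccna2. The 5 genes called negative on Acan and also lower in rich air libraries, named here after their values were seen, were Cenpe, Cenpf and Aspm, which act on the mitotic spindle and kinetochores, Gm16907 and Gm37274. Immediate early, ciliated and squamous genes were called in 0 of 24, 0 of 20 and 0 of 19 cases on Acan.

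The number of genes called on Acan moved with single libraries. It was 29 without e-cigarette 4, 45 without smoke 2, 66 without smoke 5, 114 without smoke 1, 131 without smoke 3, 142 without smoke 4, 162 without e-cigarette 2 and 173 without e-cigarette 3, and 435 without e-cigarette 6 and 583 without e-cigarette 1, against 260 with all 12 libraries. It was 429 in the smoke libraries alone, 0 in the e-cigarette libraries alone and 0 with a block for replicate number. The slopes of smoke and e-cigarette libraries differed by the interaction test in 0 genes for Acan by edgeR (809 at an unadjusted p below 0.05), so a difference between the exposures was not shown.

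**Figure D5:**
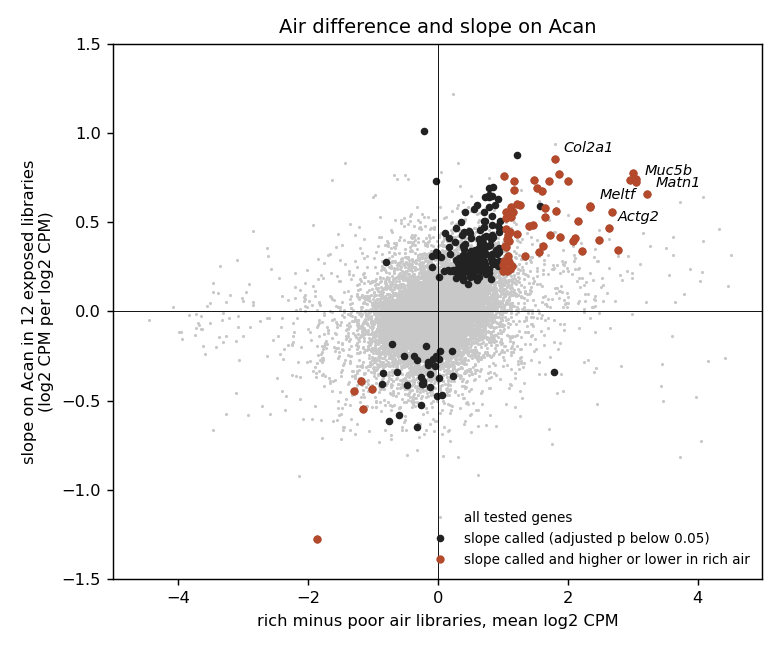
Slope on Acan in the 12 exposed libraries against the rich minus poor difference in air (mean log2 CPM), 1 point per tested gene other than Acan. Grey points are all genes, black points have a slope called at an adjusted p below 0.05, and red points are also counted as higher or lower in rich air libraries; 1 gene lies outside the axes.

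On Lipf edgeR called 0 genes (880 at an unadjusted p below 0.05), and the Wald test of DESeq2 called 20. Slopes on Lipf were above 0 in 85.6% of the 473 genes higher in rich air libraries, in 38.9% of the 476 lower ones and in 49.9% of all genes, and 114, 45 and 880 of them had an unadjusted p below 0.05. Thyroid follicle genes had a median slope on Lipf of -1.41 over 14 genes, with 0 of them called. Their summed level was 58476 to 95971 CPM in smoke libraries. In e-cigarette 1 to 6 it was 27104, 839, 29438, 153, 163 and 2992 CPM. E-cigarette 4 was the highest of the 6 in Lipf and e-cigarette 1 the lowest, while the highest thyroid sum was in e-cigarette 3. With Tg as a covariate 0 genes were called on Lipf and 217 on Acan. The smallest p was that of Cnn1, with a slope of 0.78 (SE 0.13, edgeR adjusted p = 0.21). Acta2 had 0.59 (SE 0.12, edgeR adjusted p = 0.733) and Myl9, the regulatory light chain of smooth muscle myosin, 0.47 (SE 0.10, edgeR adjusted p = 0.733). In air Myl9 was at 59.6, 66.6 and 65.0 CPM in rich libraries, against 26.0, 20.6 and 20.0 CPM in poor ones. Among the gland genes Odam had 0.71 (SE 0.17), Sbpl 0.61 (SE 0.15), Lyz1 1.09 (SE 0.33) and Ltf 0.41 (SE 0.15), and none of these passed the adjusted threshold. Dusp2 had a slope of -1.34 (SE 0.25, edgeR adjusted p = 0.625), although it was higher in rich air libraries, and Cdk8, a kinase of the mediator complex, and Ubash3b, a phosphatase of the T cell ubiquitin ligand family, had -0.52 and -0.84. The interaction of slope and exposure called 0 genes on Lipf by edgeR (572 at an unadjusted p below 0.05).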

How the data were processed

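Whole mouse larynges were profiled by mRNA sequencing. Total RNA was taken with a column kit and made into libraries with an NEBNext Ultra kit, per the labels' protocols. The submitters' processing notes name STAR (version not given), featureCounts 1.5.0-p3, GRCm38 and mm10. No source used here gives the annotation release or the strand setting of the counting, so reads of overlapping or antisense genes cannot be told apart. The authors deposited raw counts per gene for 54532 genes, with coordinates that are quoted as deposited.

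The 6 air libraries were split by CPM of the column sum of Lipf and Acan. The members and gene lists (33 lists with 418 symbols, 388 of them tested) were chosen with earlier results of these data known. From the deposited counts, genes were kept with filterByExpr over all 18 libraries (minimum count 10, minimum total 15), leaving 17537, and log2 CPM was computed with TMM factors and a prior count of 2 (edgeR 4.0.16, R 4.3.3). The rich and poor libraries were described without a test. Slopes were fitted in the 12 exposed libraries with edgeR's quasi-likelihood F test (robust fit) and Benjamini-Hochberg adjustment over all tested genes. Permutation tests used numpy 2.4.6, with 100000 resamples for 10 to 12 libraries and exact enumeration for 6. The slope test and the description were tested on simulated data. DESeq2 1.42.0, other scalings and filters, added covariates, a block for replicate number and leaving out each library were alternatives.

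Named genes were the 4 markers Lipf, Ltf, Muc5b and Acan, the 12 largest positive and 10 largest negative differences among counted protein-coding genes averaging 5 CPM or more in either group, the 2 largest differences of each list with at least 2 counted members, and the 6 protein-coding genes with the smallest p on each slope. Predicted Gm and Rik loci and the segments of antigen receptor genes were not eligible for the second set. Other members of the lists are named as examples, chosen after their values were seen. Part of the genes taken by these rules is not reported here. Each column name matched 1 sample title. Whether a library is 1 animal is not labelled, and p-values then measure only how far these samples spread, which may be technical. No pair of libraries within a group agreed within sampling noise: the chi-square divided by its degrees of freedom was 16.5 to 146 in 45 pairs.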

Additional observations from a re-analysis of the deposited data

Results flagged for a closer look

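Levels of the 54 named genes were screened within each exposure group of 6 libraries for 1 library far from the other 5. Of 162 groups 11 met this, and chance alone gives about 1 in 20 when groups are independent, which these are not, since 9 of the 11 fell in 1 library. E-cigarette 6 was low on 9 of them, all genes of cornified or squamous epithelium or Slpi. In CPM it held 0.230 of Lce1g (9.71 to 24.0 in the other e-cigarette libraries), 0.368 of Lce1h (10.1 to 43.0), 0.921 of Lce3c (35.1 to 126), 0.414 of Lce1i (8.20 to 30.9) and 0.690 of Lce1a2 (17.3 to 63.0). It also held 1.43 of Lce3f (44.96 to 192), 0.460 of Lce1d (20.6 to 56.4), 3.91 of Slpi (220.5 to 682) and 1.10 of Dsg1a (25.6 to 59.8). Air 2 had the lowest level of each of these genes among the air libraries, at 0.460 CPM of Lce3c and 2.76 CPM of Slpi. The other 2 were Bpifb2 in e-cigarette 1, at 11.6 CPM against 35.9 to 47.5 CPM in the other 5, and Dnah5 in e-cigarette 3, at 51.8 CPM against 74.4 to 87.5 CPM.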

How the results depend on the processing

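The counts of genes higher and lower in rich air libraries kept within 1.5 times of 474 and 476 under the other scalings and prior count 0.5. They came to 3110 and 2768 without a minimum difference, to 866 lower with every gene that had at least 1 count, and to 447 to 636 higher and 499 to 686 lower without any 1 library. All 440 differences recomputed for named genes kept their direction, but this was largely fixed in advance. In each of these genes the rich and poor libraries did not overlap, so leaving out 1 library could not reverse the direction. Dropping the minimum difference leaves the differences as they were. On Acan, 260 genes called became 939 with the DESeq2 Wald test, 429 in smoke alone, 0 in e-cigarette alone and 29 to 583 without any 1 library. With a replicate block the count on Acan was 0. Same-numbered smoke and e-cigarette libraries correlated at -0.446 to 0.157. The labels do not say whether the numbers pair the samples. These correlations cannot decide it, since differently numbered libraries were not compared. On Lipf, 0 became 20 with the Wald test, 5 with every gene that had at least 1 count, and 0 to 2 without any 1 library. The interaction tests gave 0 to 1 genes on Lipf and 0 to 6 on Acan without any 1 library. The Pearson r of 0.584 between Lipf and Acan became 0.539 with column sums, 0.384 without the 2 farthest libraries, 0.084 in smoke, 0.832 in e-cigarette and 0.221 to 0.724 without any 1 library. The cause of these changes was not tested. With 3 libraries a side the spread of a group is poorly known, and genes near 0 CPM rest on few counts.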
